A study of Bos taurus with 30 samples.

Results

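*PCSK1* (ENSBTAG00000020843) encodes prohormone convertase 1/3, and *CARTPT* (ENSBTAG00000047486) encodes the precursor of the cocaine- and amphetamine-regulated transcript (CART) peptides. These 2 genes were taken by identifier from the 27607 genes of an mRNA sequencing table of the bovine anterior pituitary. They were picked because the study discusses both as differing between diets in these same calves. Their diet difference is for that reason described below with its error and without a test, and supports nothing further. The tests concern a measure that the choice did not use, namely how each gene varied from calf to calf inside a diet together with the hormone genes *POMC* (ENSBTAG00000007897), *GH1* (ENSBTAG00000017220) and *PRL* (ENSBTAG00000015274).

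All 30 calves were Holstein-Friesian bulls, and each gave 1 poly(A) library of anterior pituitary tissue. On the high plane of nutrition (HI), 15 calves drank 10 litres a day holding 1.5 kg of milk replacer and ate concentrate freely. On the moderate plane (MOD), the other 15 drank 4 litres holding 0.5 kg of milk replacer, beside up to 0.5 kg of concentrate a day. Feeding ran from 2 weeks of age to euthanasia at 12 weeks. Each calf is a separate animal. The paper states that the calves were blocked by age, bodyweight, sire and farm of origin. The labels name no blocks, so these could not be entered in the tests. Because the tissue is bulk, fewer cells of a type and less RNA per cell cannot be told apart.

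Prohormone convertases are serine proteases of the regulated secretory pathway that cut hormone precursors after a pair of basic residues. In the corticotrophs of the anterior pituitary, prohormone convertase 1/3 cuts pro-opiomelanocortin, the product of *POMC*, to release adrenocorticotropic hormone. The CART precursor is itself cut by convertases, and its peptides are best known from the hypothalamus, where they reduce feeding. Growth hormone (*GH1*), made by somatotrophs, and prolactin (*PRL*), made by lactotrophs, lose only a signal peptide and need no such cut.

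Values are read counts scaled by the authors to an effective library size (normalised CPM, counts per mega of effective reads), and totals ran from 14.7 to 26.9 M (mega) reads per library. HI replicate 3 stood apart from the other 29 libraries over the 14290 genes tested. Its mean Pearson correlation with the others was 0.782, against 0.953 to 0.973. Reads fell on 16940 genes there, where the others had 18317 to 18975, and its scaling factor of 0.510 compared with 0.894 to 1.15. *GH1* took 24.4% of its reads. Relations and levels that this calf moved are given with and without it. Of the labelled tissue's defining genes, *POMC*, *GH1* and *PRL* were read in every library, each by at least 25897 reads.

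*PCSK1* was higher in the HI libraries on average, with wide overlap between diets. The lowest HI value was 9.41 normalised CPM, the median 33.0 and the highest 74.0. In MOD the lowest was 9.83, the median 17.9 and the highest 42.5. Of the HI calves, 3 lay above every MOD calf and 1, HI replicate 3, lay below every MOD calf. The mean was 33.6 ± 15.6 (SD, n = 15) for HI calves against 19.8 ± 9.49 (SD, n = 15) for MOD calves. That is 1.69-fold in the means, 1.84-fold in the medians and 0.72 ± 0.23 (SE) as a difference of log2(normalised CPM + 1).

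The single calves show how *PCSK1* spread. HI replicate 12 had 74.0 normalised CPM from 1744 reads, followed by HI replicate 5 with 46.4 and HI replicate 6 with 45.2. At the other end, HI replicate 3 had 9.41 from 115 reads, MOD replicate 9 had 9.83 from 180 reads and MOD replicate 11 had 10.0 from 209 reads. One MOD calf, replicate 15, had 42.5 and ranked 4 of 30, while HI replicates 8 and 11, at 15.4 and 18.2, lay among the lower calves. Without HI replicate 3 the HI mean was 35.3 ± 14.7 (SD, n = 14), the log2 difference was 0.83, and 6 MOD calves lay below every remaining HI calf.

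*CARTPT* was a gene of few reads that also ran higher in HI on average. The lowest HI value was 0.754 normalised CPM, the median 4.83 and the highest 29.5. In MOD the lowest was 0.278, the median 1.73 and the highest 8.73. Of the HI calves, 4 lay above every MOD calf, and of the MOD calves, 3 lay below every HI calf. The mean was 7.34 ± 8.18 (SD, n = 15) for HI calves against 2.16 ± 2.00 (SD, n = 15) for MOD calves, which is 3.40-fold in the means, 2.79-fold in the medians and 1.08 ± 0.34 (SE) as a difference of log2(normalised CPM + 1). The added 1 shrinks the last value, since many calves were near 1, and with 0.5 added instead it was 1.23. That value also compares means of logs, in which the highest calves weigh less than in the means. On recovered reads the log2 difference was 1.77 in edgeR and 1.79 in DESeq2.

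A pair of HI calves stood far above the rest for *CARTPT*. HI replicate 4 had 29.5 normalised CPM from 596 reads and HI replicate 3 had 22.3 from 273 reads, and the next calf, HI replicate 8, had 9.61. HI replicate 5 came next with 8.73, level with the top MOD calf to the digits given. The highest MOD calf, replicate 5, had 8.73 from 172 reads, and the other MOD calves lay at or below 2.78. Within HI the values ran over a 39.2-fold range and within MOD over a 31.4-fold range. The fold of the means was 2.67 without HI replicate 4, 2.91 without HI replicate 3 and 4.35 without MOD replicate 5. Without HI replicate 3 the HI mean was 6.27 ± 7.31 (SD, n = 14), the HI median 4.34 and the log2 difference 0.94.

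**Figure D1:**
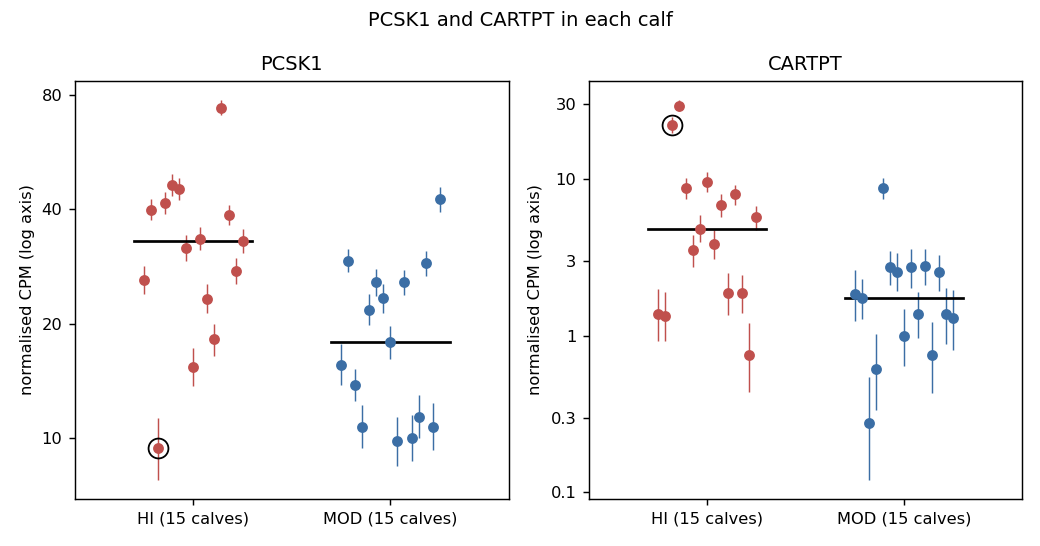
Normalised CPM of *PCSK1* (left) and *CARTPT* (right) in each of the 15 HI and 15 MOD calves, on log axes. Points are calves, thin bars are exact 95% Poisson intervals of the reads (counting error only), black lines are diet medians, and the ring marks HI replicate 3, which was lowest of all for *PCSK1* at 9.41 and second highest for *CARTPT* at 22.3.

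Counting error was small beside the spread of calves. For the MOD calf with 8 *CARTPT* reads, 0.278 normalised CPM, the exact 95% Poisson interval ran from 0.120 to 0.548. For HI replicate 4 it ran from 27.2 to 32.0. For *PCSK1* in HI replicate 3 it ran from 7.77 to 11.3. The intervals cover counting error only. The SD of log2(normalised CPM + 1) inside a diet was 0.67 for *PCSK1*, larger than in 92.8% of the genes tested, and 0.98 for *CARTPT*, larger than in 99.4%. The median gene had 0.33. Leaving out HI replicate 3 gave 0.61, 0.92 and 0.23. The biological coefficient of variation that edgeR estimated from the reads was 45.0% for *PCSK1* and 83.4% for *CARTPT*, against a median of 25.1% over all genes tested. Both genes thus varied more between calves than most transcripts of the gland. The hormone genes did so too. Their SD over all libraries was 1.12 for *POMC* (larger than in 99.7% of the genes tested), 0.75 for *PRL* (96.3%) and 0.52 for *GH1* (80.7%).

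The number in each sample title holds, at positions 2 and 3, digits that form 4 title series whose meaning is not stated. Series 78 holds 8 HI and 8 MOD calves, and there the diets overlapped for both genes. *PCSK1* ran from 9.41 to 46.4 normalised CPM in HI (median 27.5) and from 9.83 to 42.5 in MOD (median 19.8). *CARTPT* ran there from 1.34 to 29.5 in HI (median 7.78) and from 0.278 to 8.73 in MOD (median 1.96). Series 19 holds only 2 HI calves beside 5 MOD calves, too few for a comparison, and its values are given as description. *PCSK1* was at 45.2 and 74.0 in HI against 10.0 to 29.3 in MOD, and *CARTPT* at 3.51 and 7.98 in HI against 0.610 to 2.78 in MOD. Series 29 and 37 hold 1 MOD calf each, also too few for a comparison.

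The hormone genes themselves were tested between diets, since they had not been picked on that contrast. In limma, a linear model fitted over all 14290 genes, a call needed an adjusted p under 0.1 with a fold over 1.5, and 0 genes (0%) met it. An unadjusted p under 0.05 was met by 933 genes (6.53%), by 3.33% of all genes higher in HI and by 3.20% lower in HI. On recovered reads, edgeR's quasi-likelihood test called 0 genes and DESeq2's Wald test 26. Mean *POMC* was 9686 ± 13163 normalised CPM among HI calves (SD, n = 15) and 4579 ± 1917 among MOD calves (SD, n = 15), with a log2 difference of 0.43 ± 0.39 (SE; limma, adjusted p = 0.844). HI replicate 2 had 52819, and without it the log2 difference was 0.20. On recovered reads edgeR gave 1.09 (adjusted p = 0.527). The *POMC* medians were 4619 in HI and 4395 in MOD.

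*GH1* had medians of 96024 normalised CPM in HI and 98793 in MOD, a log2 difference of -0.0096 ± 0.22 (SE; limma, adjusted p = 0.992). The sign of that difference turned under other settings, to 0.19 in edgeR, but it was -0.16 in DESeq2. Mean *GH1* in HI was 123695 ± 101059 (SD, n = 15), and 98368 ± 25215 (SD, n = 14) without HI replicate 3. In MOD it was 109675 ± 23700 (SD, n = 15). The limma log2 difference without that calf was -0.16. *PRL* had medians of 105635 in HI and 73055 in MOD, a log2 difference of 0.16 ± 0.29 (SE; limma, adjusted p = 0.895). None of these 3 hormone genes was called in limma, edgeR or DESeq2.

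Whether *PCSK1* and *CARTPT* varied together with the hormone genes inside a diet was tested over 7 relations, the seventh being between the 2 genes. Values of log2(normalised CPM + 1) were taken as deviations from the diet mean over 30 calves, with 100000 permutations of calves within diet, two-sided, and adjusted over the 7 relations. Only the relations with *GH1* passed an adjusted p of 0.05, with opposite signs for the 2 genes, and neither passed without HI replicate 3.

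*PCSK1* fell as *GH1* rose across calves, with a Pearson r of -0.561 (95% interval -0.769 to -0.245; permutation p = 0.00220, adjusted p = 0.00780). By rank the relation was weaker, with a Spearman rho of -0.359 (permutation p = 0.0496, adjusted p = 0.174). Within HI the r was -0.690 (permutation p = 0.00696, adjusted over 14 relations p = 0.0904). Within MOD it was -0.353 (permutation p = 0.195, adjusted p = 0.597). Leaving out the 2 calves of each diet farthest from its *GH1* median gave -0.0226 within HI and -0.0155 within MOD (permutation p of 0.940 and 0.960). HI replicate 3 had the highest *GH1* and the lowest *PCSK1* of all 30 calves. Without that calf the r was -0.359 (95% interval -0.645 to 0.0167; permutation p = 0.0601, adjusted p = 0.210), and without the 2 calves farthest from the *GH1* median it was -0.234 (permutation p = 0.250). The call was therefore lost without the calves of extreme *GH1*. Leaving them out also narrows the range of *GH1*, which by itself makes r smaller in size. Whether the relation rested on these calves cannot be told from such omissions.

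*CARTPT* rose with *GH1*, with an r of 0.580 (95% interval 0.271 to 0.780; permutation p = 0.00223, adjusted p = 0.00780), where the rho was 0.473 (permutation p = 0.0113, adjusted p = 0.0794). Within HI the r was 0.606 and the rho 0.329 (permutation p of 0.0129 and 0.231). Within MOD the r was 0.494 and the rho 0.614 (permutation p of 0.0598 and 0.0166). Adjusted over 14 relations, none of these passed 0.05. Leaving out the 2 farthest calves of each diet gave 0.441 within HI and 0.455 within MOD (permutation p of 0.131 and 0.116). Without HI replicate 3, which ranked 1 of 30 for *GH1* and 2 of 30 for *CARTPT*, the r was 0.482 (95% interval 0.133 to 0.725; permutation p = 0.0108, adjusted p = 0.0753). It was then 0.489 within HI and 0.494 within MOD. Without the 2 calves farthest from the *GH1* median the r was 0.442 (permutation p = 0.0163, adjusted p = 0.0748), so the call was lost while the sign held.

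The calves with most *GH1* after HI replicate 3 did not all share 1 pattern. In HI replicate 8, ranked 2 of 30 for *GH1*, *PCSK1* ranked 23 and *CARTPT* 3. In HI replicate 4, ranked 5 for *GH1*, *CARTPT* ranked 1, but *PCSK1* also ranked high, at 5. In MOD replicates 11 and 9, ranked 3 and 4 for *GH1*, *PCSK1* ranked 28 and 29 and *CARTPT* ranked 12 and 13. Both genes ranked low in MOD replicate 14, ranked 6 for *GH1*, at 26 and 23.

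**Figure D2:**
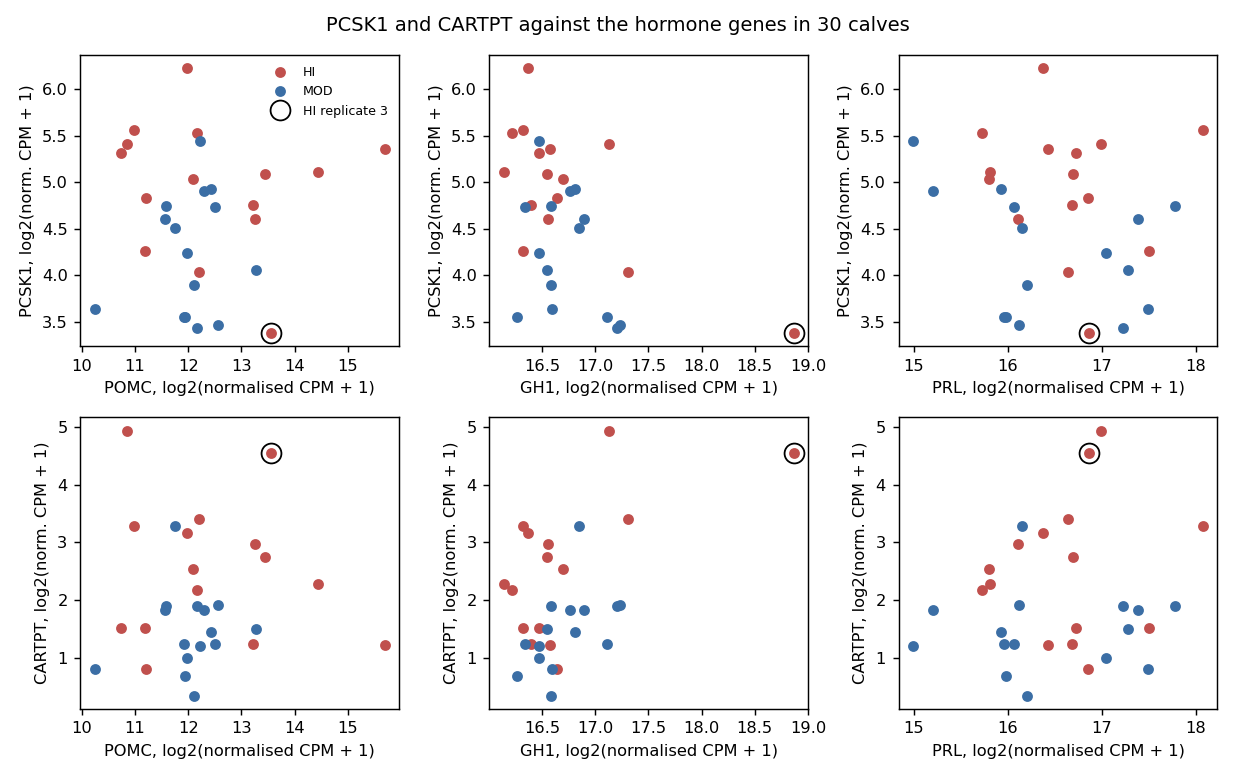
*PCSK1* (top row) and *CARTPT* (bottom row) against *POMC*, *GH1* and *PRL* (columns), all as log2(normalised CPM + 1), with 1 point per calf coloured by diet and HI replicate 3 ringed. In the *GH1* column the ringed calf lies far to the right, lowest for *PCSK1* and near the top for *CARTPT*. The *POMC* and *PRL* columns show no slope past the test.

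Neither gene followed *POMC*, the substrate gene of the convertase. *PCSK1* with *POMC* gave an r of -0.0643 (95% interval -0.421 to 0.309; permutation p = 0.751), and by rank the rho was -0.147 (permutation p = 0.436). Within HI the r was -0.159 and within MOD 0.150 (permutation p of 0.571 and 0.611). *CARTPT* with *POMC* gave an r of -0.0827 (95% interval -0.436 to 0.293; permutation p = 0.719), where the rho was -0.0314 (permutation p = 0.881). The adjusted p for r was 0.877 in both. Without HI replicate 3 the r was 0.0266 for *PCSK1* and -0.174 for *CARTPT* (permutation p of 0.889 and 0.445). In HI replicate 2, the calf with most *POMC*, *PCSK1* was at 39.9 normalised CPM and *CARTPT* at 1.34, ranks 6 and 24 of 30. In MOD replicate 12, the calf with least *POMC*, they ranked 25 and 28. The intervals leave room for moderate relations of either sign.

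With *PRL*, *PCSK1* gave an r of -0.245 (95% interval -0.561 to 0.133; permutation p = 0.193, adjusted p = 0.451), where the rho was -0.228 (permutation p = 0.235). Within HI and MOD the r was -0.139 and -0.340 (permutation p of 0.620 and 0.213). Without the 2 calves farthest from the *PRL* median it was -0.432 (permutation p = 0.0214, adjusted p = 0.0748). *CARTPT* with *PRL* gave an r of 0.0886 (95% interval -0.287 to 0.441; permutation p = 0.624), where the rho was 0.125 (permutation p = 0.501). In HI replicate 5, the calf with most *PRL*, *PCSK1* ranked 2 and *CARTPT* 4 of 30. Between the 2 genes the r was -0.0154 (95% interval -0.380 to 0.353; permutation p = 0.938), and 0.205 without HI replicate 3.

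The 7 relations were also compared between diets by permuting diet labels over values standardised within diet. None passed the test, with the smallest permutation p at 0.383 and every adjusted p at or above 0.722. For *CARTPT* with *GH1*, r differed by 0.112 between HI and MOD (permutation p = 0.605). For *PCSK1* with *GH1* it differed by -0.337 (permutation p = 0.414), and by -0.0172 without HI replicate 3 (permutation p = 0.968).

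**Figure D3:**
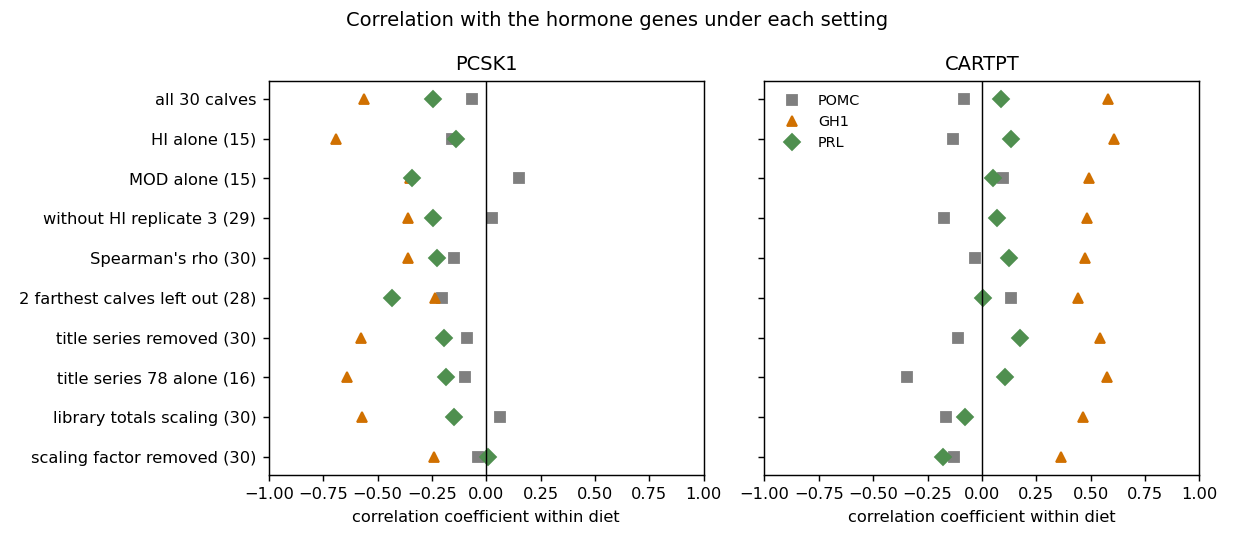
Correlation coefficients of *PCSK1* (left) and *CARTPT* (right) with *POMC*, *GH1* and *PRL* (symbols), 1 row per setting, with the number of calves in brackets. All rows but the within-diet ones use deviations from diet means, and all give Pearson's r but for the Spearman row. The *GH1* symbols stay left of 0 for *PCSK1* (-0.690 to -0.234) and right of 0 for *CARTPT* (0.366 to 0.606) in the settings drawn.

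Properties of the libraries moved with both genes, with *GH1* and with *PRL*. The scaling factor is one of them, and it divides every value of a library. On deviations from diet means, the scaling factor on the log2 scale was related to *PCSK1* with an r of 0.537 and a rho of 0.365 (permutation p of 0.00424 and 0.0477). It was related to *CARTPT* with an r of -0.484 and a rho of -0.462 (permutation p of 0.0174 and 0.0105), and to *GH1* with an r of -0.843 and a rho of -0.580 (permutation p of 0.000330 and 0.00111). *PRL* gave an r of -0.467 and a rho of -0.759 with the factor (permutation p of 0.00458 and 1e-05, the latter the smallest that 100000 permutations can give). With HI replicate 3 left out, the r with the factor was -0.474 for *GH1* (permutation p = 0.0109) and -0.847 for *PRL* (permutation p = 1e-05). Because the factor divides the values of *GH1* and *PRL*, a negative relation with it is partly built in. These permutation p values do not set that part aside. The number of genes with a read was related to *PCSK1* with an r of 0.558 and a rho of 0.471 (permutation p of 0.00255 and 0.00920), and to *CARTPT* with an r of -0.537 and a rho of -0.496 (permutation p of 0.00436 and 0.00491). Adjusted over the 8 relations of these 2 genes with library properties, each of these 4 r values passed 0.05. None of them did in the other 29 libraries, with r of 0.308 and -0.310 for the factor and 0.355 and -0.420 for the number of genes. *GH1* gave an r of -0.829 and a rho of -0.416 with the number of genes (permutation p of 0.000630 and 0.0219). Without HI replicate 3 that r was -0.446 (permutation p = 0.0173). With the factor removed together with diet, the r with *GH1* was -0.239 for *PCSK1* (permutation p = 0.210) and 0.366 for *CARTPT* (permutation p = 0.0509). The factor itself moved with *GH1* and divides its values, so removing it also takes out variation of *GH1*. The smaller r therefore decides nothing about either relation. The first principal component of all genes tested, *PCSK1* and *CARTPT* included, held 57.9% of the variance within diets. Its direction is arbitrary and was set so that its r with *PCSK1* is positive, so only the size is informative there. The component was related to *PCSK1* with an r of 0.617 and a rho of 0.536 (permutation p of 0.000170 and 0.00125). For *CARTPT* the component gave an r of -0.431 and a rho of -0.295 (permutation p of 0.0489 and 0.132). *GH1*, also among the genes tested, was related to it more closely, with an r of -0.881 and a rho of -0.692 (permutation p = 8e-05 for both). *PCSK1* and *GH1* thus both followed this component, with opposite signs. The r was -0.351 for *POMC* and -0.0651 for *PRL* (permutation p of 0.121 and 0.670). Recomputed without HI replicate 3, the component held 32.9% of the variance, and its r was 0.503 with *PCSK1* (permutation p = 0.00555, adjusted p = 0.0444) and -0.157 with *CARTPT* (permutation p = 0.454, adjusted p = 0.519). With *GH1* the r of the recomputed component was -0.570 (permutation p = 0.00207). Whether the relation of *PCSK1* with *GH1* goes beyond this shared component was not tested. Total reads gave an r of -0.0495 with *PCSK1* and -0.169 with *CARTPT* (permutation p of 0.797 and 0.302).

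Both relations were also computed with the title series taken into account. With series removed together with diet, the r with *GH1* was -0.576 for *PCSK1* (permutation p = 0.00167, adjusted p = 0.0117) and 0.544 for *CARTPT* (permutation p = 0.00334, adjusted p = 0.0117). Among the 16 calves of series 78 alone it was -0.641 (permutation p = 0.00686, adjusted p = 0.0480) and 0.574 (permutation p = 0.0399, adjusted p = 0.140). The 15 calves of that series other than HI replicate 3 gave -0.452 and 0.517 (permutation p of 0.0976 and 0.0723, adjusted p = 0.319 for both). Each other series holds fewer than 6 calves of a diet.

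To see how these relations compare with those of other genes, likeness was measured for each gene tested as the mean of its Spearman rho with *PCSK1*, or with *CARTPT*, within HI and within MOD (15 calves each). It is a description over libraries shared by all genes, with no test. *PCSK1* shared its calf-to-calf pattern with more genes than *CARTPT*, a gene of few reads, did. Such counts were not made for other genes, so whether they are unusual is not known. Of 14289 genes, 2381 (16.7%) had a mean rho with *PCSK1* beyond 0.5 in size, and 1652 (11.6%) without HI replicate 3. For *CARTPT* the counts were 287 (2.01%) and 177 (1.24%). The *GH1* value for *PCSK1* was -0.418, and 29.7% of all genes had a value larger in size. The *GH1* value for *CARTPT* was 0.471, rank 275 from the top, and 3.19% of genes had a value larger in size. When HI replicate 3 was left out, the *GH1* values were -0.359 and 0.398.

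*POMC* lay nearer 0, with a mean rho of -0.111 for *PCSK1* and 0.0250 for *CARTPT*. *PRL* had -0.218 and 0.175. Across 14288 genes, likeness to *PCSK1* and likeness to *CARTPT* were correlated with an r of -0.560, and -0.358 without HI replicate 3. Genes are not independent replicates, and both measures come from the same libraries.

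**Figure D4:**
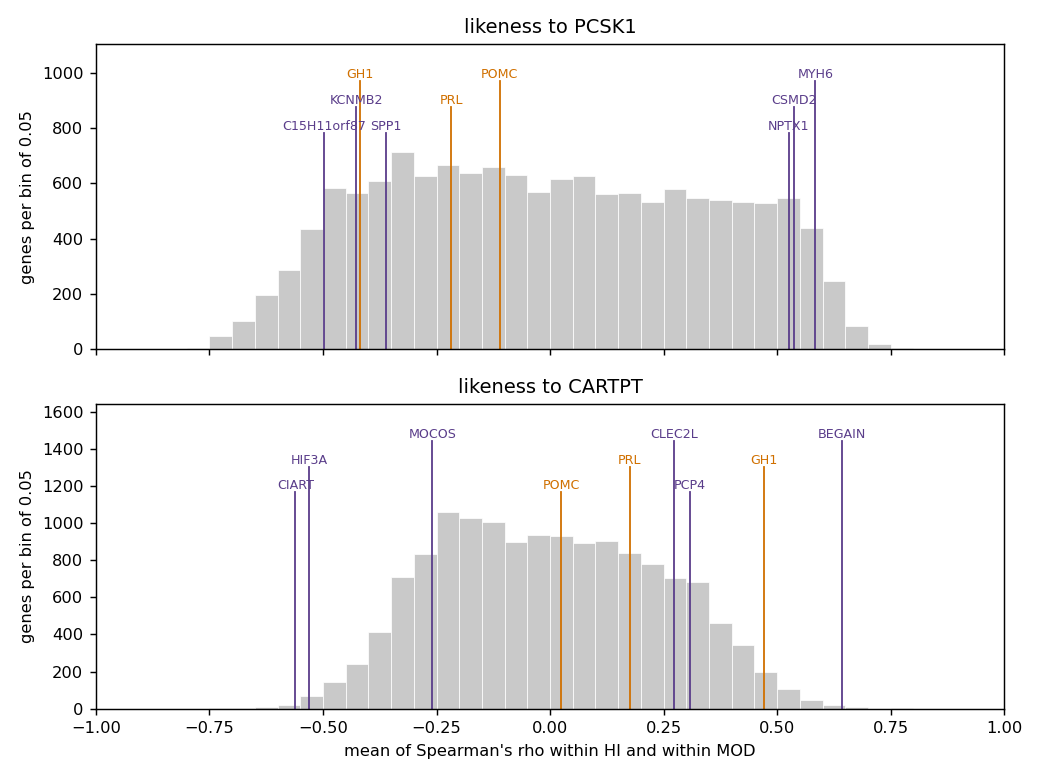
Histograms of the mean within-diet Spearman rho of 14289 genes with *PCSK1* (top) and with *CARTPT* (bottom), in genes per bin. Orange lines mark the hormone genes and violet lines the 3 highest and 3 lowest study-listed genes, with *GH1* left of centre at -0.418 for *PCSK1* and right of centre at 0.471 for *CARTPT*.

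The genes most like *PCSK1* were known by identifier only. ENSBTAG00000004848 had a rho of 0.861 in HI and 0.818 in MOD, and ENSBTAG00000015891 had 0.807 and 0.739. The least like were ENSBTAG00000006116, with -0.743 and -0.846, and ENSBTAG00000003092, with -0.775 and -0.793. For *CARTPT* the highest were ENSBTAG00000006059 (0.750 and 0.786) and ENSBTAG00000039302 (0.746 and 0.761), and the lowest ENSBTAG00000032055 (-0.675 and -0.793) and ENSBTAG00000007217 (-0.686 and -0.718). These 8 genes kept their rank at the 2 ends without HI replicate 3.

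Among the genes that the study lists as differing between diets, 31 others that carried a symbol and were tested are described. That list was chosen on the diet contrast in these calves, and its members were compared here only inside a diet. With *PCSK1*, 15 of the 31 had a positive mean rho, and the median was -0.00357, against -0.0161 over all genes. *MYH6*, a cardiac myosin heavy chain gene, had a rho of 0.389 in HI and 0.779 in MOD. *CSMD2* had 0.407 and 0.668. *NPTX1*, which encodes a secreted neuronal pentraxin, had 0.418 and 0.632. These were the 3 highest, positive in both diets and larger in MOD.

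At the low end for *PCSK1* were *C15H11orf87*, with -0.432 in HI and -0.564 in MOD, *KCNMB2*, a potassium channel subunit gene, with -0.139 and -0.714, and the osteopontin gene *SPP1*, with -0.293 and -0.432. In all, 3 of the 31 (9.68%) exceeded 0.5 in size, against 16.7% of all genes, and 1 did without HI replicate 3.

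With *CARTPT*, 14 of the 31 had a positive mean rho, and the median was -0.0357, against -0.0125 over all genes. *BEGAIN*, which encodes a protein of the postsynaptic density, had a rho of 0.721 in HI and 0.564 in MOD, rank 12 of 14289 genes, and 16 without HI replicate 3. *PCP4*, which encodes a calmodulin-binding peptide, had 0.521 and 0.0929, and *CLEC2L* 0.325 and 0.221. In the other direction, *CIART*, a repressor of the circadian clock, had -0.614 and -0.507, and *HIF3A*, a hypoxia-inducible factor gene, had -0.607 and -0.454. *MOCOS*, the molybdenum cofactor sulfurase gene, had -0.379 and -0.139.

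*BEGAIN*, *CIART* and *HIF3A* were the 3 of 31 (9.68%) that exceeded 0.5 in size with *CARTPT*, where 2.01% of all genes did. Their mean rho was 0.613, -0.569 and -0.540 without HI replicate 3. The same 3 genes had mean rho of 0.0839, 0.227 and -0.143 with *PCSK1*. *SERPINA1*, a serine protease inhibitor gene that the study discusses beside both, had mean rho of 0.209 with *PCSK1* and 0.0554 with *CARTPT*.

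**Figure D5:**
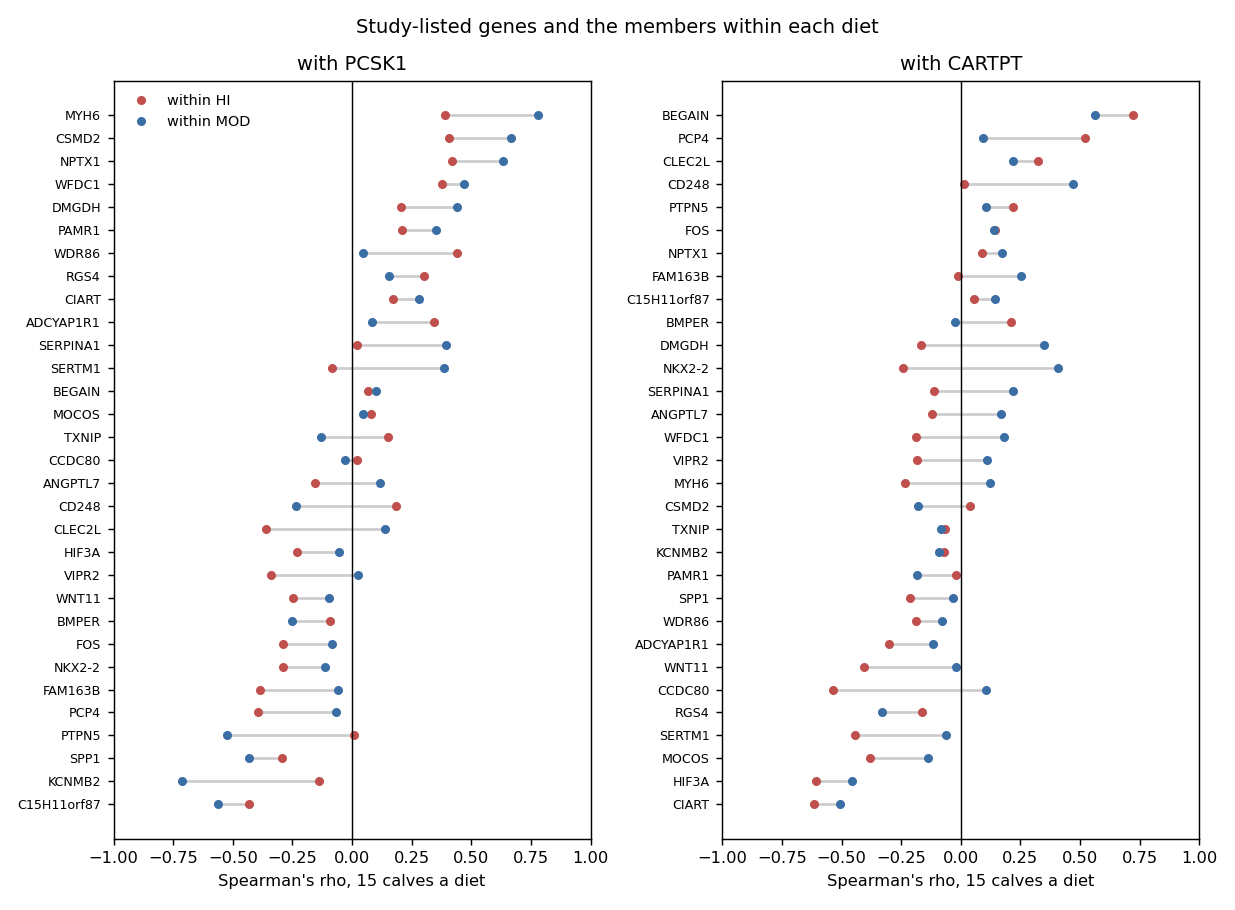
Spearman rho within HI (red) and within MOD (blue) of the 31 study-listed genes with *PCSK1* (left) and *CARTPT* (right), ordered by the mean of both diets, with grey bars joining the diets. *BEGAIN* at the top and *HIF3A* and *CIART* at the bottom of the *CARTPT* panel lie far from 0 in both diets.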

How the data were processed

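Anterior pituitary mRNA of 30 calves was sequenced by the authors with a stranded kit, trimmed with Cutadapt, aligned to ARS-UCD1.2 and counted per gene with STAR. The deposited signal holds 27607 genes, as read counts that the authors scaled to effective library sizes (normalised CPM). This unit was read from the values, and the labels name edgeR without saying how it scaled them. Whole reads were recovered as multiples of 1 step per column, with 100% of nonzero values within 0.01 of a whole read.

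The members and lists were chosen with earlier results of these data known. Groups follow the sample descriptions, and replicates were numbered in accession order. The 14290 genes above 1 in 15 or more libraries were fitted on log2(value + 1) with limma 3.58.1 (trended eBayes, R 4.3.3, Benjamini-Hochberg adjustment), with edgeR 4.0.16 and DESeq2 1.42.0 on recovered reads as alternatives. The limma standard errors of the diet differences come from this fit. Python 3.11.15 (NumPy 2.4.6, SciPy 1.17.1) was used for correlations. Intervals of r use Fisher's z. All tests were two-sided, and the procedures were tested on simulated data. No pair of libraries within a diet was alike within sampling noise (lowest chi-square per degree of freedom 13.8).

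Named were the 2 genes, the hormone genes, and by likeness the 2 highest and 2 lowest genes and the 3 highest and 3 lowest study-listed genes, of which 1 is not reported here and stayed out of the list. *SERPINA1* and single calves were chosen after their values were seen. The library properties, scaling-factor removal and combined omissions were added after seeing the data. A RefSeq table paired 0 of the file's identifiers with symbols, so the planned list of 20 prohormone processing genes and the cell type markers were not analysed here. Hormone identifiers were given with the choice of genes, and other symbols come from the study.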

Additional observations from a re-analysis of the deposited data

How the results depend on the processing

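In limma, 0 genes were called by diet, 2 with library totals as the scaling, 26 with DESeq2, and from 0 to 11 with a calf left out, the most without HI replicate 3. The log2 difference of *PCSK1* ran from 0.63 to 0.83 and that of *CARTPT* from 0.91 to 1.21 with a calf left out. On recovered reads that of *CARTPT* was 1.77 in edgeR and 1.79 in DESeq2, against 1.08 in limma. That of *GH1* changed sign to 0.011 with title series as covariate and to 0.19 in edgeR, but was -0.16 in DESeq2. It ran from -0.16 to 0.030 with a calf left out. No alternative called a hormone gene.

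The r of *PCSK1* with *GH1* (-0.561) kept its sign but not its call in 7 settings, at -0.359 by Spearman's rho and also -0.359 without HI replicate 3, -0.234 without the 2 farthest calves, -0.239 with the scaling factor removed, -0.312 without HI replicate 3 and the then 2 farthest calves, -0.452 in series 78 without HI replicate 3 and -0.269 by rho without HI replicate 3. With a calf left out it ran from -0.616 to -0.359, and HI replicate 3 alone ended the call. The r of *CARTPT* with *GH1* (0.580) lost its call at 0.473 by rho, 0.466 with library totals, 0.574 in series 78, 0.442 without the 2 farthest calves, 0.366 with the factor removed, 0.241 without HI replicate 3 and the then 2 farthest, 0.517 in series 78 without HI replicate 3 and 0.413 by rho without HI replicate 3. It ran from 0.482 to 0.613 with a calf left out, and again HI replicate 3 alone ended the call.

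The other relations passed under no setting, and their signs turned. With library totals r was 0.0636 for *PCSK1* with *POMC*, -0.0798 for *CARTPT* with *PRL* and 0.00313 between the 2 genes, and within diets 0.133 for *PCSK1* with *PRL* in HI and -0.101 and -0.0652 for *CARTPT* with *PRL* in HI and MOD. Without the 2 farthest calves r was 0.135 for *CARTPT* with *POMC* (0.151 in HI, -0.225 in MOD), -0.00278 for *PCSK1* with *POMC* in MOD and 0.157 between the 2 genes (0.116 in HI). With the factor removed r was 0.00711 for *PCSK1* with *PRL*, -0.177 for *CARTPT* with *PRL* and 0.331 between the 2 genes. Between the 2 genes it was also 0.0425 by rho, 0.00212 with pseudocount 0.5, 0.203 without HI replicate 3 and the then 2 farthest calves (-0.0419 for *CARTPT* with *PRL*), 0.182 in series 78 without HI replicate 3 (0.0459 for *PCSK1* with *POMC*), and by rho without HI replicate 3 0.163, or 0.182 within HI. The cause was not tested.

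With a calf left out, r ran from -0.156 to 0.0266 for *PCSK1* with *POMC*, -0.342 to -0.130 with *PRL*, -0.174 to 0.0828 for *CARTPT* with *POMC*, 0.0371 to 0.142 with *PRL* and -0.0880 to 0.205 between the 2 genes. Within HI the ranges for *PCSK1* were -0.326 to -0.0368 (*POMC*), -0.773 to -0.370 (*GH1*) and -0.386 to -0.0362 (*PRL*), for *CARTPT* -0.259 to 0.0775, 0.489 to 0.651 and 0.0355 to 0.249, and between the 2 genes -0.291 to 0.206. Leaving out HI replicate 4 or 11 took the r of *PCSK1* with *GH1* within HI past the threshold (adjusted p of 0.0267 and 0.0399). Within MOD the ranges for *PCSK1* were -0.0770 to 0.244, -0.548 to -0.232 and -0.489 to -0.126, for *CARTPT* -0.163 to 0.264, 0.421 to 0.587 and -0.0247 to 0.172, and between the 2 genes 0.145 to 0.331. No paired or blocked analysis was possible, because the labels do not give the blocks in which the paper assigned calves to diets. The replicate numbers were given in accession order and pair no calves. Permutations of calves within diet therefore do not take sire, farm or the other blocking factors into account. Depth limits single *CARTPT* values, with as few as 8 reads in a library.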
